A study of Drosophila melanogaster with 10 samples.

Results

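Described here are 5 genes, GEFmeso, pegasus (peg), Fas3, the filamin gene cheerio (cher) and Gadd45, of the 14352 genes in the count table of the adult ventral nerve cord (VNC, the fly counterpart of the spinal cord). They were chosen on the values measured in these libraries, as genes outside the immune pathways that rose after injury with little scatter between libraries. Their difference between injured and uninjured libraries is therefore given as a description, with no test. No cutoff was part of that choice. All 5 passed the filter on low values, a mean of more than 2 on the authors' TPM scale in at least 1 group, as did 9365 genes in all.

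All flies were w1118 adults, a white-eyed laboratory strain, aged 3 to 10 days per the labels (the RNA-seq methods of the study give a narrower range), with about 30 males and 30 females behind each sample. 5 uninjured libraries came from flies held without food in vials of 2% agar for 5 hr. The 5 injured libraries came from flies whose 6 legs, 2 wings and head had been severed and which were then held for 5 hr on a 2% agar plate at 98% humidity. Injury, loss of the head and appendages, and housing cannot be told apart in this design. Each library is a pool of VNCs, 60 to 80 per the labels (the study's methods give a smaller number for RNA extraction), made from 325 ng of total RNA after depletion of ribosomal RNA, and was read as 100 bp single reads. Any p-value thus measures the spread between pools. Total counts were 5146470 to 6640492 per library, and libraries are numbered 1 to 5 by their column in the count table.

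GEFmeso is a guanine nucleotide exchange factor, a protein that switches on small GTPases, and binds the GTPases Ral and Cdc42. Pegasus is a small secreted protein with a Kazal-like domain that helps the signal protein Wingless to spread between fly cells. Fas3 (fasciclin 3) is an immunoglobulin-domain protein of the cell surface that binds itself on the facing cell and is found at septate junctions and at some synapses. Filamins, the proteins that cher encodes, crosslink actin filaments and tie them to the membrane. Gadd45 is the single fly member of a family of small stress-induced proteins. In mammals, its relatives bind a kinase at the head of the p38 and JNK stress cascades.

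All 5 genes stood higher after injury, from 2.36-fold for Fas3 to 4.42-fold for peg, and in each the lowest injured library lay above the highest uninjured one. Because these values chose the genes, nothing is read from the counts that follow. Of the 9365 genes tested with edgeR's quasi-likelihood test, 707 (7.55%) were called higher and 574 (6.13%) lower at a Benjamini-Hochberg adjusted p under 0.01. Among them 223 genes (2.38% of those tested) were called and at least 2-fold higher. Every injured library lay above every uninjured library in 824 genes (8.80%). By log2 fold change the 5 genes ranked 76 (peg), 90 (GEFmeso), 111 (cher), 130 (Gadd45) and 159 (Fas3) of the 707 called higher. Their median log2 fold change was 1.72, beside a median of -0.00094 over all genes tested.

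**Figure D1:**
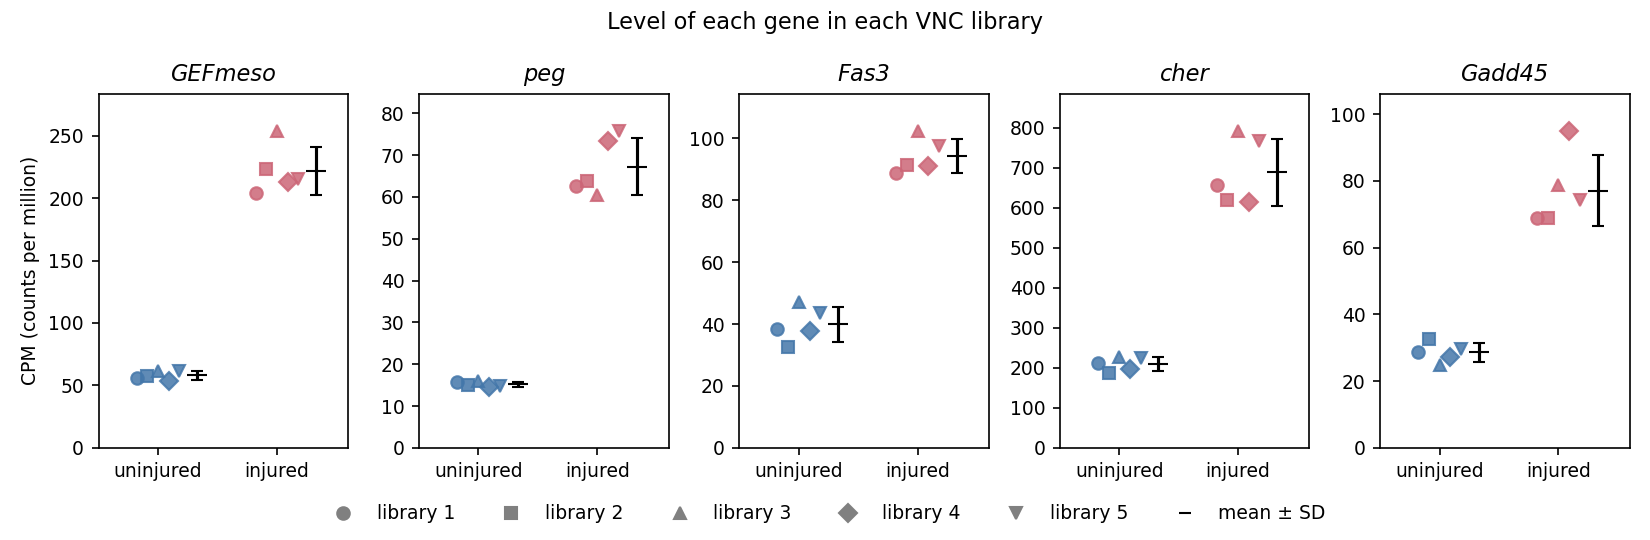
Level of each gene in each library, in CPM (vertical axes from 0, a scale of its own for each gene), with a marker for each library and the mean ± SD of 5 libraries beside it. No injured library falls within the uninjured range in any of the 5 genes. As a ratio the gap is narrowest for Fas3, at 1.89-fold (47.1 against 88.8 CPM).

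GEFmeso (FBgn0050115) was read at 55.8, 57.9, 61.7, 53.4 and 61.2 CPM in uninjured libraries 1 to 5, CPM being the count as parts per 1e6 of the library's normalized total. In injured libraries 1 to 5 it was read at 204, 223, 253, 212 and 215 CPM. Injured library 3 stood highest and injured library 1 lowest, and the lowest injured value was 3.31 times the highest uninjured one. The means were 58.0 ± 3.51 and 222 ± 19.0 CPM (SD, n = 5 each), a log2 fold change of 1.93 with a standard error (SE) of 0.07, or 3.82-fold. These levels rest on 319 to 391 counts in each uninjured pool and 1156 to 1562 in each injured one. Leaving out any 1 library kept the log2 fold change between 1.87 and 1.96.

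peg (FBgn0046763) was the gene with the largest fold among the 5. Uninjured libraries 1 to 5 held 15.7, 14.9, 15.9, 14.6 and 14.9 CPM of it, and injured libraries 1 to 5 held 62.7, 63.8, 60.5, 73.3 and 75.6 CPM. Injured libraries 4 and 5 stood above the other 3, which lay close together, and the groups were 3.80-fold apart at their nearest values. Means of 15.2 ± 0.558 and 67.2 ± 6.81 CPM (SD, n = 5 each) gave a log2 fold change of 2.14 (SE 0.08), or 4.42-fold. The uninjured libraries held only 86 to 101 counts each. Their coefficient of variation was 3.67%, beneath the 10.4% that counting error alone gives at this depth.

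Fas3 (FBgn0000636) showed the smallest change of the 5 and the widest relative spread among uninjured libraries, a coefficient of variation of 13.9%. Its levels were 38.3, 32.7, 47.1, 37.9 and 43.5 CPM in uninjured libraries 1 to 5. They were 88.8, 91.2, 102, 91.1 and 97.6 CPM in injured libraries 1 to 5. Uninjured library 3 was the highest and library 2 the lowest of their group, and the injured libraries were closer together, with a coefficient of variation of 5.88%. The nearest values of the groups, 47.1 and 88.8 CPM, were 1.89-fold apart. The means of 39.9 ± 5.54 and 94.2 ± 5.54 CPM (SD, n = 5 each) gave a log2 fold change of 1.24 (SE 0.09), or 2.36-fold, and 1.16 to 1.31 with any 1 library left out.

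cher (FBgn0014141) was the most counted of the 5, with 1176 to 1418 counts in uninjured and 3208 to 4876 in injured pools. In CPM it stood at 211, 186, 228, 197 and 224 in uninjured libraries 1 to 5 and at 656, 619, 791, 614 and 766 in injured libraries 1 to 5. Injured libraries 3 and 5 were high, and 2 and 4 were low. Counting error at this depth is 1.56% in the injured group, against a coefficient of variation of 12.1%. Means of 209 ± 17.7 and 689 ± 83.5 CPM (SD, n = 5 each) gave a log2 fold change of 1.72 (SE 0.09), or 3.30-fold, and 1.65 to 1.76 with any 1 library left out.

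Gadd45 (FBgn0033153) had uninjured levels of 28.8, 32.6, 24.9, 27.3 and 29.6 CPM in libraries 1 to 5. Injured libraries 1 to 5 held 68.9, 68.9, 78.8, 94.8 and 74.2 CPM. Injured library 4 stood apart at the top, and without it the log2 fold change was the lowest of any that left out 1 library, 1.34. The means were 28.6 ± 2.84 and 77.1 ± 10.7 CPM (SD, n = 5 each), a log2 fold change of 1.43 (SE 0.10), or 2.69-fold. The nearest values of the groups were 2.11-fold apart.

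To set the genes against each other, the authors' TPM values were used, which divide by the length of the longest transcript. In uninjured VNCs the order from low to high was peg (5.36 ± 0.199), GEFmeso (6.40 ± 0.265), Fas3 (6.65 ± 0.832), Gadd45 (13.1 ± 1.33) and cher (17.0 ± 1.16 TPM; SD, n = 5 each). The ranges of Fas3, GEFmeso and peg were not all apart, since Fas3 ran from 5.52 to 7.78 TPM and so reached into the ranges of both others. The median gene tested stood at 10.6 TPM, above those 3 and below Gadd45 and cher. In injured VNCs the order was Fas3 (15.1 ± 0.963), peg (22.7 ± 1.55), GEFmeso (23.5 ± 2.24), Gadd45 (33.7 ± 3.94) and cher (53.8 ± 6.73 TPM). GEFmeso (21.7 to 27.2) and peg (20.7 to 24.5 TPM) overlapped there, while Fas3 lay below both and Gadd45 and cher above. The median of all genes tested was 10.2 TPM. In rank, GEFmeso moved from above 32.7% of the genes tested to above 76.9% of them, and cher from above 66.6% to above 91.1%. Added TPM was greatest for cher, at 36.8, and least for Fas3, at 8.45.

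**Figure D2:**
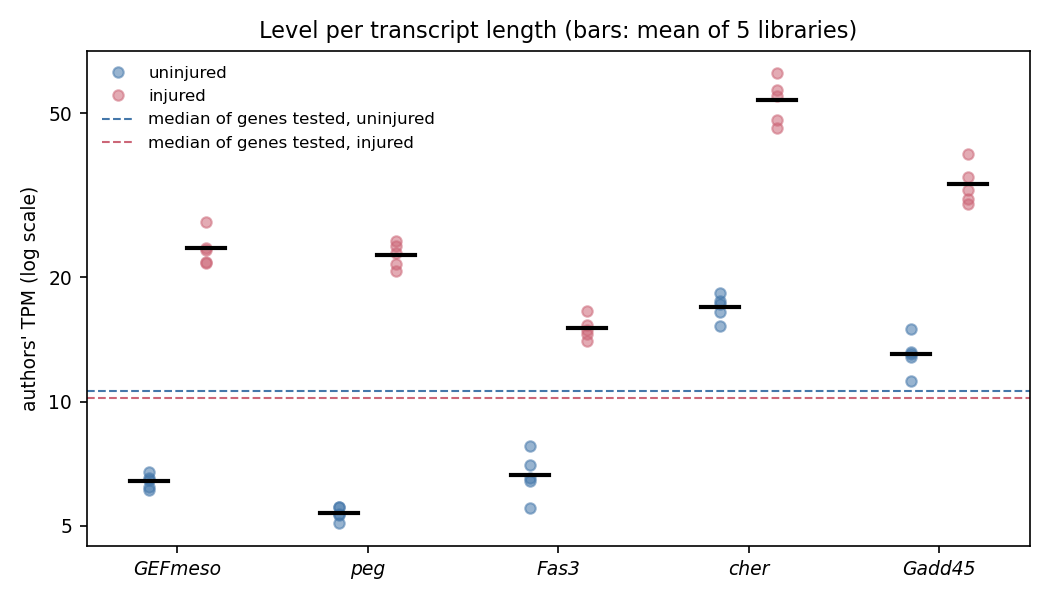
Level per transcript length on the authors' TPM scale (vertical axis, log scale) in each uninjured and injured library, with a bar at the mean of 5 libraries and dashed lines at the median of all genes tested. Uninjured points of Fas3, GEFmeso and peg lie below the uninjured median of 10.6 TPM, and injured points of all 5 genes lie above the injured median of 10.2 TPM.

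This scale depends on which transcript is made. peg and Gadd45 each have 1 annotated transcript, of 1.934 and 1.495 kb, in a later annotation. GEFmeso has 3 transcripts of 5.6 to 6.17 kb, Fas3 has 7 of 2.422 to 4.084 kb and cher has 10 of 3.219 to 8.392 kb. The counts are per gene, so a change in the mix of transcripts of Fas3 or cher was not measured. A level per length of these genes would be higher if their shorter transcripts were the ones read. Likewise, in bulk tissue fewer cells of a type and less RNA per cell cannot be told apart.

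The libraries in which the genes stood high within their own group were partly the same. Among uninjured libraries, library 3 was the highest for GEFmeso, peg, Fas3 and cher but the lowest for Gadd45. In that group Fas3 and cher ranked the libraries in 1 order, from 3 down through 5, 1, 4 and 2. Among injured libraries, library 3 was the highest for GEFmeso, Fas3 and cher and the lowest for peg. Library 5 was the highest for peg and library 4 for Gadd45. Library 4 was also the lowest for cher, 0.16 below the group mean on the log2 scale while Gadd45 was 0.31 above it. Within groups, the SD of log2 CPM was 0.10 for GEFmeso, 0.11 for peg, 0.15 for Fas3 and cher and 0.17 for Gadd45. That SD had a median of 0.16 over all genes tested and of 0.14 over the genes called higher. Gadd45 lay above both medians, Fas3 and cher between them, and GEFmeso and peg below both. Beside the genes called higher, the little scatter for which the 5 genes were chosen thus held only for GEFmeso and peg.

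**Figure D3:**
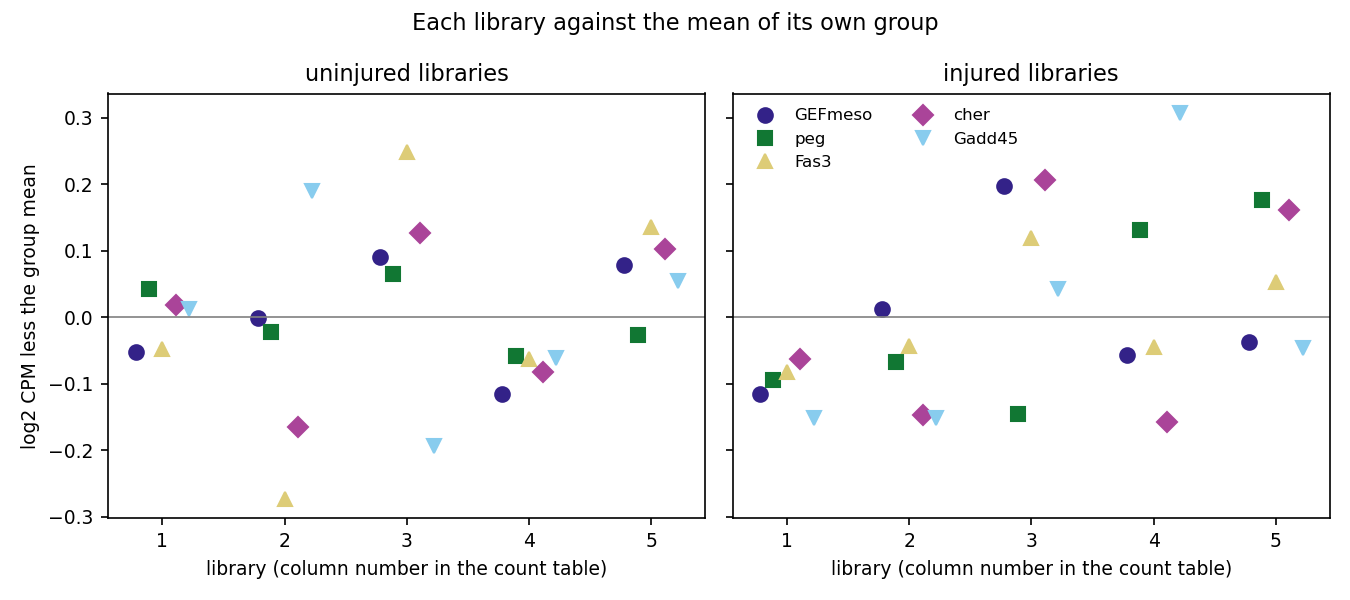
log2 CPM of each gene in each library less the mean of the 5 libraries of its own group (vertical axis), against the library number (horizontal axis), for uninjured and injured libraries. Of the injured points, library 4 holds both the highest, Gadd45 at 0.31, and the lowest, cher at -0.16.

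The ratio of 1 gene to another in the same library needs no library total. The log2 ratio of Fas3 to cher was -2.39 ± 0.09 before injury and -2.86 ± 0.10 after it (SD, n = 5 each), the steadiest ratio to cher in either group. GEFmeso to Fas3 went from 0.55 ± 0.16 to 1.23 ± 0.07. GEFmeso and peg, the pair with the largest folds, had a ratio of 1.91 ± 0.08 in uninjured libraries and of 1.72 ± 0.23 in injured ones. In injured library 3 GEFmeso was highest and peg lowest, and in injured libraries 4 and 5 peg was high. These are differences of counts per gene and not per length.

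Several markers of other cells moved between the groups. Over all genes tested 7.55% were called higher and 6.13% lower. The sums given for them are over every marker in the count table, tested or not. Each of the 8 neuron markers tested was not called (0 called by edgeR, DESeq2 and limma-voom, and 2 higher at an unadjusted p under 0.05), and their summed level was 10134 to 13242 CPM in uninjured and 10661 to 12781 CPM in injured libraries, so the defining markers of the labelled nerve tissue were present. Among 8 glia markers 1 was called higher and 2 lower (summed 5219 to 7211 and 4243 to 6505 CPM). Of 7 hemocyte (blood cell) markers tested 4 were called lower, with sums of 1382 to 1965 and 829 to 1519 CPM. Of 5 gut markers 4 were called lower by edgeR and DESeq2 but 1 by limma-voom. Their sum was 661 CPM in uninjured library 2, 72.6 to 172 CPM in the other uninjured libraries and 35.8 to 75.4 CPM in injured ones. Of 6 fat body markers 1 was called higher and 1 lower, with sums of 3516 to 4536 and 2050 to 4105 CPM. The 8 muscle markers summed to 1903 to 3262 CPM in uninjured libraries but to between 842 in injured library 3 and 7346 CPM in injured library 4. In injured library 3 GEFmeso, Fas3 and cher were at their highest and peg at its lowest. Without it the log2 fold changes were 1.87 for GEFmeso, 2.17 for peg, 1.20 for Fas3, 1.65 for cher and 1.41 for Gadd45. In injured library 4 Gadd45 was at its highest and cher at its lowest. Without that one they were 1.95, 2.11, 1.25, 1.76 and 1.34 in the same order. None of the muscle markers was called by edgeR, DESeq2 or limma-voom, with 4 higher at an unadjusted p under 0.05, and both markers of trachea and epidermis that were tested were not called either (the sums over all 5 in the table were 26.5 to 29.6 and 15.9 to 28.5 CPM). Reads of adapter or primer sequence numbered 2229 to 2890 in uninjured and 4814 to 5452 in injured libraries. Reads in exons made up 41.3 to 43.4% of the reads in uninjured libraries, and 37.2, 38.1 and 38.2% in 3 injured libraries and 42.7 and 43.1% in the others. Reads in introns numbered 1268611 ± 86257 and 1417703 ± 129722 (SD, n = 5 each), with ranges that overlapped. The part of any of these in the levels of the 5 genes was not tested.

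The genes below belong to pathways named for the roles of the 5 genes. Their lists were put together with earlier results of these libraries known, so a list's direction is no independent evidence. They are compared by the same edgeR fit, adjusted over all 9365 genes, and each list leaves out the 5 genes themselves. A gene counts as called at an adjusted p under 0.01.

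Cdc42 and Rala, the GTPases that GEFmeso binds, were named after their values were seen. GEFmeso was chosen for its rise, so nothing is read from their smaller fold changes beside it. Cdc42 rose from 41.8 ± 0.890 to 55.6 ± 6.40 CPM (log2 fold change 0.41, SE 0.08, edgeR adjusted p = 0.00230). On the TPM scale with limma its adjusted p was 0.0363 or 0.0374, depending on the pseudocount, and the call was lost. Rala, the Ral GTPase, was at 58.2 ± 5.10 and 72.5 ± 7.27 CPM and was not called (0.32, SE 0.08, edgeR adjusted p = 0.0137), but it was by DESeq2 (adjusted p = 0.00492) and without uninjured library 3 (edgeR adjusted p = 0.00976). A test of GEFmeso against these genes was not made.

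Around peg, the Wingless pathway held 2 called genes of 26 tested, both higher (7.69%, close to the 7.55% of all genes), and its median log2 fold change was -0.02. 0 were called lower by edgeR, DESeq2 or limma-voom, and 0 were lower at an unadjusted p under 0.05. Of the 7 receptors 0 were called by any of the 3 tools, and 0 had an unadjusted p under 0.05. wg itself, the ligand that pegasus helps to spread, was below the filter at 1.16 ± 0.796 and 1.01 ± 0.897 CPM (2 to 13 and 1 to 15 counts). With no filter on low values wg was not called (edgeR adjusted p = 0.905), and at these counts a small change could not be seen. Swim, another secreted protein that carries Wingless in flies, rose from 9.06 ± 2.06 to 34.4 ± 11.2 CPM (log2 fold change 1.92, SE 0.23, edgeR adjusted p = 4.53e-05). Apc, a scaffold of the complex that marks beta-catenin for breakdown, rose from 589 ± 23.4 to 744 ± 36.5 CPM (0.34, SE 0.06, edgeR adjusted p = 7.15e-04). dally, a glypican that binds Wingless at the cell surface, was not called at 728 ± 64.3 and 681 ± 62.8 CPM (-0.10, edgeR adjusted p = 0.414). The Wingless receptors fz and fz2, named after their values were seen, had log2 fold changes of 0.08 and 0.06 (edgeR adjusted p = 0.332 and 0.621).

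Around Fas3, other adhesion molecules of the immunoglobulin, cadherin and related families were mostly not called, 23 of 29 tested. The 4 called higher were 13.8% of the list, beside 7.55% of all genes, and the 2 called lower were 6.90%, close to the 6.13% of all genes. The median log2 fold change was 0.11. Lac (Lachesin) rose from 22.1 ± 1.61 to 45.2 ± 2.80 CPM (1.03, SE 0.07, edgeR adjusted p = 5.17e-07). Ama (Amalgam), a secreted immunoglobulin-domain protein, rose from 8.14 ± 0.551 to 14.8 ± 4.04 CPM (0.86, SE 0.18, edgeR adjusted p = 0.00327). Without injured library 4 the adjusted p of Ama was 0.0104, above the threshold. Its receptor Nrt (Neurotactin), named after its values were seen, rose from 153 ± 6.31 to 208 ± 14.7 CPM (0.44, SE 0.06, edgeR adjusted p = 7.68e-05). wrapper, an immunoglobulin-domain protein of glia, fell from 112 ± 4.93 to 60.3 ± 11.4 CPM (-0.89, SE 0.11, edgeR adjusted p = 5.14e-05). Fas1 was not called at 1738 ± 174 and 1824 ± 204 CPM (0.07, edgeR adjusted p = 0.630). Fas2, named after its values were seen, went from 296 ± 16.8 to 237 ± 22.4 CPM (-0.32, SE 0.07, edgeR adjusted p = 0.00429), a call lost when uninjured library 3 or 5, or injured library 2 or 4, was left out (edgeR adjusted p = 0.0122 to 0.0142) and with no filter on low values (0.0142). The number called in this list was 11 without injured library 1 and 3 without injured library 4.

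Of 18 septate junction genes tested, 4 were called higher (22.2%, beside 7.55% of all genes), and the median log2 fold change was 0.10. Lac, already counted among the adhesion molecules, was among these 4. 0 were called lower by edgeR, DESeq2 or limma-voom, nor did any have an unadjusted p under 0.05 in that direction. Beside Lac, vari, a scaffold protein of the junction, rose from 124 ± 6.82 to 177 ± 7.86 CPM (0.51, SE 0.05, edgeR adjusted p = 1.05e-05). l(2)gl, a cell polarity protein, rose from 121 ± 6.85 to 159 ± 5.98 CPM (0.39, SE 0.05, edgeR adjusted p = 1.01e-04). Atpalpha, the catalytic subunit of the sodium pump and a junction component, was not called at 7760 ± 1085 and 7198 ± 1084 CPM (-0.11, edgeR adjusted p = 0.583).

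Around cher, actin-binding proteins and the integrin adhesion machinery held the most called genes by number of the lists given here. By share called higher, the JNK and AP-1 targets below stood above them, at 57.1%. Of 39 genes tested 16 were called higher (41%) and 2 lower (5.13%), with a median log2 fold change of 0.25. Over all genes tested these shares were 7.55% and 6.13%. Both actin-binding proteins (8 of 21) and integrins with their linkers (8 of 18) were among those called higher. Tig (Tiggrin), a matrix ligand of integrins, rose from 109 ± 8.35 to 700 ± 110 CPM (2.69, SE 0.10, edgeR adjusted p = 2.52e-09). scb, an integrin alpha subunit, rose from 89.1 ± 8.84 to 212 ± 32.6 CPM (1.25, SE 0.10, edgeR adjusted p = 1.47e-06). Vinc (vinculin), which joins integrin adhesions to actin, rose from 58.7 ± 7.04 to 140 ± 12.5 CPM (1.25, SE 0.09, edgeR adjusted p = 3.65e-07). shot, a spectraplakin that links actin to microtubules, was not called at 4237 ± 194 and 4021 ± 413 CPM (-0.08, edgeR adjusted p = 0.581). jbug, the other filamin-type gene and named after its values were seen, was at 54.1 ± 6.92 and 68.8 ± 14.3 CPM (0.34, SE 0.14, edgeR adjusted p = 0.0925), and mys, the beta integrin subunit named in the same way, rose from 123 ± 6.32 to 233 ± 12.8 CPM (0.92, SE 0.05, edgeR adjusted p = 9.09e-08).

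Around Gadd45, the stress kinase cascades were called mostly at their outputs. Of 20 genes tested 7 were called higher (35.0%, beside 7.55% of all genes) and 1 lower (5.00%, beside 6.13%). The median log2 fold change was 0.06. At the level of transcription factors and other outputs 4 of 5 were called higher, against 1 of 9 upstream genes and 2 of 6 kinases. The count of 8 called in either direction is not steady: leaving out uninjured library 3 or 5 made it 4, and leaving out uninjured library 1 or 2, or injured library 2 or 4, made it 5. puc, the phosphatase that JNK induces and that switches JNK off, rose from 59.7 ± 2.82 to 131 ± 13.7 CPM (1.14, SE 0.07, edgeR adjusted p = 1.46e-07). Jra (Jun) rose from 49.2 ± 1.97 to 106 ± 16.5 CPM (1.10, SE 0.10, edgeR adjusted p = 2.40e-06). kay (Fos) rose from 176 ± 6.93 to 372 ± 32.3 CPM (1.08, SE 0.06, edgeR adjusted p = 8.80e-08). Atf-2, a transcription factor of the p38 branch, was not called at 359 ± 37.4 and 342 ± 33.1 CPM (-0.07, edgeR adjusted p = 0.604). Mekk1, the fly counterpart of the kinase that Gadd45 relatives bind in mammals, stood at 139 ± 2.39 and 140 ± 2.25 CPM (0.01, SE 0.04, edgeR adjusted p = 0.875) and was named after its values were seen.

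Of 13 known target genes of JNK and AP-1 (the Jun and Fos dimer), 7 passed the filter. Of those 7, 4 were called higher (57.1%, beside 7.55% of all genes), with a median log2 fold change of 1.14. 0 were called lower by edgeR, DESeq2 or limma-voom, with 1 lower at an unadjusted p under 0.05. A gene can pass the filter through its injured level alone, so this share and this median may be raised by the filter. The other 6 were below the filter on TPM. Among these were upd2 and upd3, ligands of the JAK/STAT pathway, which were named after their values were seen. upd2 was at 1 to 2 counts in uninjured and 15 to 34 in injured libraries, and upd3 at 1 to 4 and 11 to 22 counts. The smallest value in the table is 1, so the uninjured counts lay at or near the floor. The groups did not overlap in either gene. Every injured library lay above every uninjured one in 8.80% of all genes tested. upd2 and upd3 were both called higher when no filter or filterByExpr, edgeR's own filter on counts, was used (edgeR adjusted p = 1.10e-05 and 3.53e-06 for upd2, 2.36e-04 and 8.08e-05 for upd3), and the list then held 6 called genes. Ilp8, Pvf1, upd1 and rpr, also below the filter, were not called with no filter (edgeR adjusted p = 0.189 to 0.972). Ets21C, an ETS-domain transcription factor, rose from 4.15 ± 1.37 to 80.3 ± 16.6 CPM (4.28, SE 0.20, edgeR adjusted p = 1.18e-08). Mmp1, a secreted protease of the matrix, rose from 39.2 ± 6.62 to 528 ± 96.9 CPM (3.75, SE 0.15, edgeR adjusted p = 2.74e-09). scaf, a secreted protease-like protein, rose from 6.04 ± 1.87 to 28.6 ± 8.39 CPM (2.24, SE 0.23, edgeR adjusted p = 1.32e-05). GstD1, a glutathione transferase, was not called at 148 ± 15.6 and 198 ± 30.4 CPM (0.42, edgeR adjusted p = 0.0116), though it was by DESeq2 (adjusted p = 0.00156), with the column number as a block (edgeR adjusted p = 0.00463), and without uninjured library 3 (0.00952) or injured library 4 (0.00196).

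The DNA damage response, for which the Gadd45 family was named, held 1 called gene of 24 tested (4.17%, beside 7.55% of all genes). The list is too small to set this share apart from that of all genes. Its median log2 fold change was -0.08. 0 were called lower by edgeR or limma-voom and 1 by DESeq2, with 5 lower at an unadjusted p under 0.05. The gene called higher was Xrp1, a transcription factor induced by damage, which rose from 279 ± 17.9 to 465 ± 28.2 CPM (0.73, SE 0.06, edgeR adjusted p = 1.89e-06). Without uninjured library 5 the list held 2 called genes. grp, the fly checkpoint kinase of the Chk1 type, was not called at 131 ± 6.69 and 126 ± 6.36 CPM (-0.05, edgeR adjusted p = 0.511). p53, named after its values were seen, stood at 7.08 ± 1.14 and 7.96 ± 1.40 CPM (0.17, edgeR adjusted p = 0.490).

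**Figure D4:**
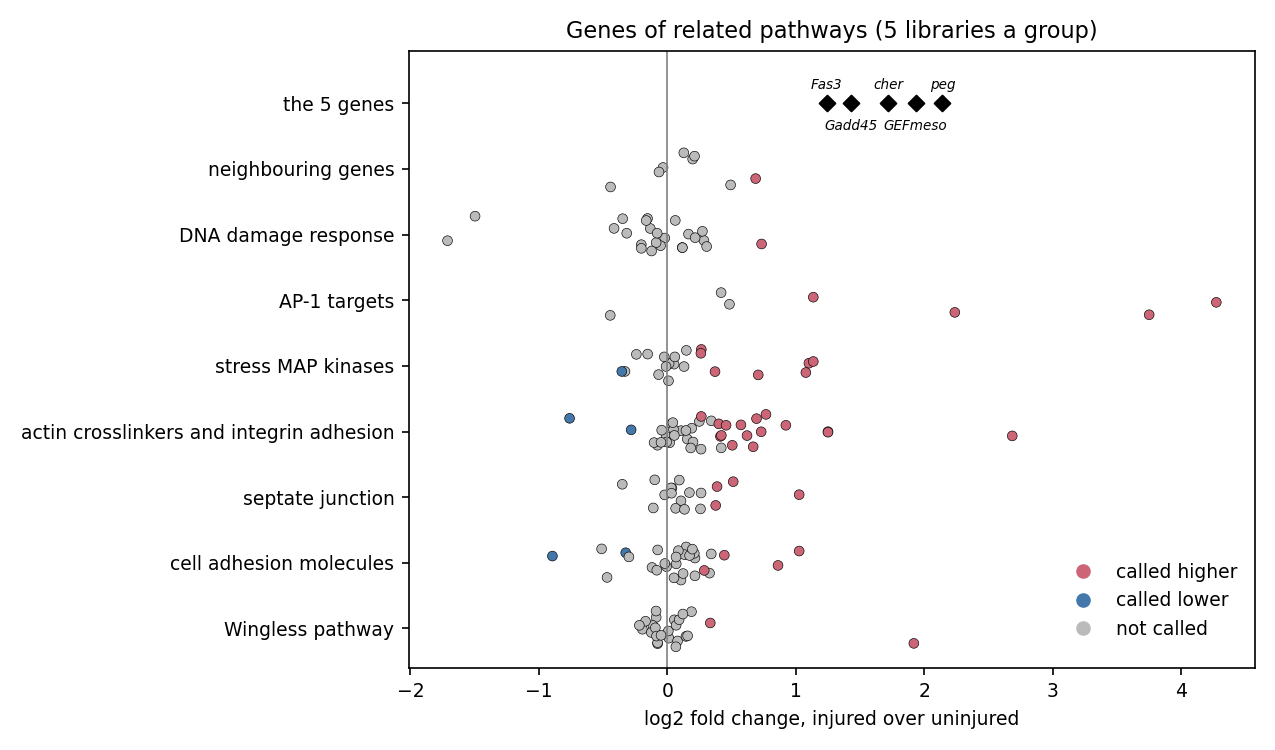
log2 fold change, injured over uninjured (horizontal axis), of each gene tested in the pathway lists and among the neighbouring genes, a point each, coloured by the edgeR call at an adjusted p under 0.01, with the 5 genes as diamonds in the top row. The 5 diamonds span 1.24 to 2.14, and in the Wingless and DNA damage lists 2 of 26 and 1 of 24 genes are called.

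For each gene, the 3 genes whose profile over the 10 libraries lay nearest were found by the root mean square difference in log2 CPM, each gene taken from its own uninjured mean. Nearest to GEFmeso were Socs36E, a feedback inhibitor of JAK/STAT signaling (0.09), pain, a TRPA ion channel (0.11), and RhoGAP15B, a GTPase-activating protein (0.13). Socs36E went from 82.6 ± 6.76 to 299 ± 16.8 CPM and pain from 63.4 ± 7.48 to 232 ± 24.7 CPM. Nearest to cher were CG1572 (0.10), pain again (0.14) and Pak3, a kinase that Rac and Cdc42 activate (0.15), which went from 103 ± 4.76 to 317 ± 34.5 CPM. Nearest to Fas3 were CG12991 (0.10), CG8312 (0.13) and per, the clock gene period (0.14), which went from 67.4 ± 6.10 to 162 ± 18.4 CPM.

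peg and Gadd45 had no gene as near as these. Those nearest to peg were RhoGAP15B (0.20), GEFmeso (0.20) and CG34349 (0.21), so GEFmeso is the 1 gene of the 5 that appears among another's nearest. Those nearest to Gadd45 were CG14801 (0.17), Myo31DF, an unconventional myosin (0.19), and CG17646 (0.19). The measure depends on the size of the rise and on the scatter within groups. CG34349, with the same log2 fold change as peg (2.14), lay farther from peg than RhoGAP15B, at 1.99. The measure says nothing of shared function.

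**Figure D5:**
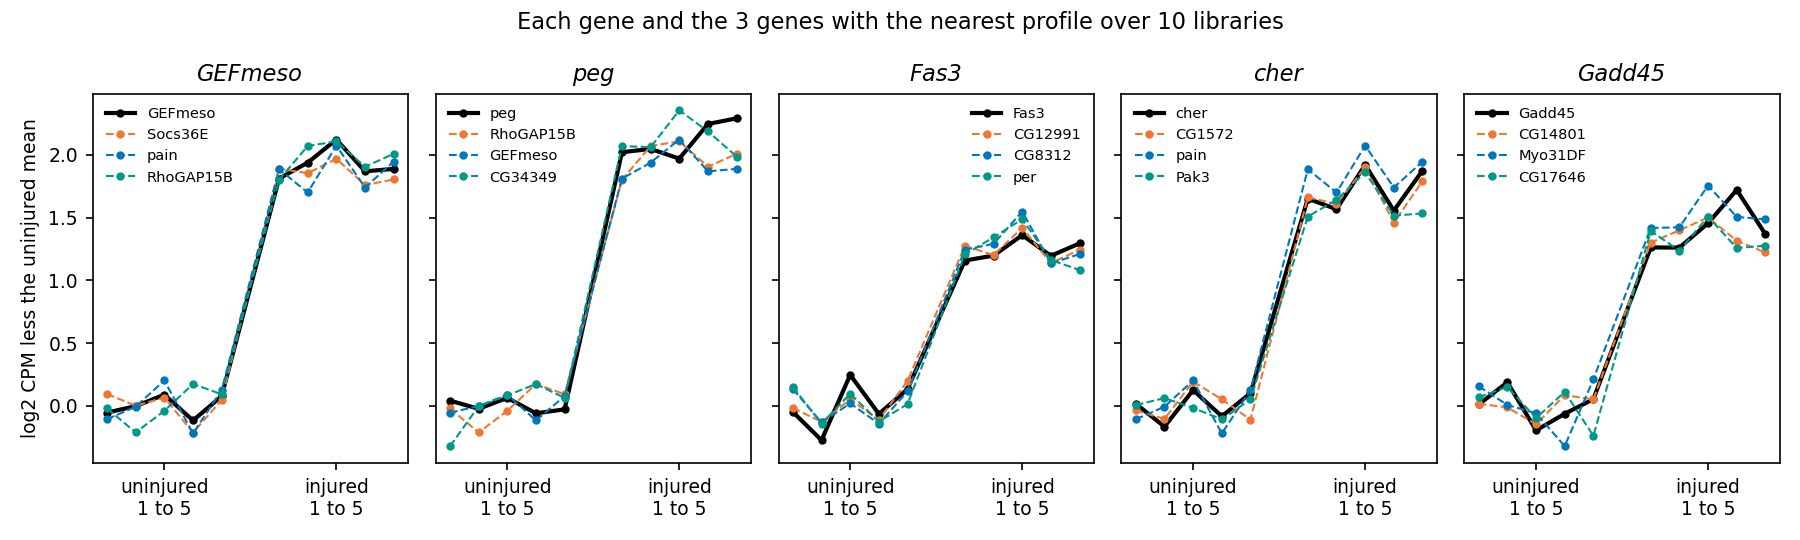
log2 CPM less the uninjured mean (vertical axis) in uninjured libraries 1 to 5 and injured libraries 1 to 5 (horizontal axis), for each of the 5 genes (black) and the 3 genes with the nearest profile (dashed). The dashed lines hold close to GEFmeso and cher, with root mean square differences of 0.09 to 0.15, and lie farther from peg, at 0.20 to 0.21.

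Of the 20 genes that flank the 5 genes, 2 on each side by their start in a later annotation (RefSeq, release 6 of the fly genome), 14 were in the count table and 8 were tested. Only Adk3, an adenylate kinase gene beside Gadd45, was called by edgeR (12.5% of those tested, beside 7.55% of all genes called higher). It rose from 137 ± 5.70 to 221 ± 15.2 CPM (log2 fold change 0.69, SE 0.06, edgeR adjusted p = 1.51e-06). Gadd45 itself, chosen for its rise, was at 1.43. Dhc93AB, a dynein heavy chain gene beside peg, went from 78.6 ± 14.9 to 57.9 ± 3.20 CPM (-0.44, SE 0.11, edgeR adjusted p = 0.0105) and was called in 8 of 19 alternatives. These were DESeq2 (adjusted p = 0.00126), the edgeR fits without uninjured library 2, 3 or 5 (0.00820, 0.00933 and 0.00571), and those with RLE, filterByExpr, the column number as a block or library totals over the tested genes (0.00912 to 0.00992). Rlip, a Ral-binding protein gene on the other side of peg, was at 117 ± 10.0 and 115 ± 5.52 CPM (-0.03, edgeR adjusted p = 0.749). cal1, a centromere protein gene beside cher, was at 78.8 ± 4.58 and 91.3 ± 8.23 CPM (0.21, edgeR adjusted p = 0.0409), and was called without injured library 4 (edgeR adjusted p = 0.00971). GckIII beside cher, Acp36DE beside Fas3, and Rgk2 and CG10927 beside GEFmeso had edgeR adjusted p-values of 0.479, 0.230, 0.147 and 0.627. The other 6 in the table, CG5697, CG12278, CG34171, CG34278, Or43a and CG1850, were below the filter. Of these CG34171 was called higher with no filter (edgeR adjusted p = 0.00466) and with filterByExpr (0.00241).

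Some flanking genes overlap the genes described, and no source says that strand was used in counting. Reads of a gene and of its antisense partner may therefore have been mixed. Acp36DE, a seminal fluid protein gene on the strand opposite to Fas3, held 27 to 122 counts per uninjured and 80 to 113 per injured library, beside 221 to 293 and 473 to 630 for Fas3. CG34171, on the same strand as Fas3, held 5 to 12 and 16 to 23 counts. cal1, on the strand opposite to cher, held 438 to 580 and 451 to 642 counts beside 1176 or more of cher in every library. CG34278, also opposite to cher, was at 1 count in all 10 libraries, the smallest value in the table. CG42697, on the same strand as GEFmeso, and CG42779 and CG45079, opposite to cher, were not in the count table, so no counts of them are given. These overlaps were taken from an Ensembl annotation, in which peg and Gadd45 have no overlapping gene.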

How the data were processed

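RNA-seq of 5 uninjured and 5 injured VNC pools was used, grouped by the labels. The authors aligned reads with BWA in GeneSifter to a release 5 fly genome and deposited estimated counts per gene; tool versions were not given in the sources used here. The deposited estimated counts differ from whole numbers by at most 0.00063 and were rounded; none was below 1, so a 1 may stand for no read. What the authors deposited as TPM is an RPKM on the longest transcript and is shown as deposited. Their own comparisons (fold changes, p-values, correlations; limma is named in the submitters' notes) were not used. The number of per-sample columns not read was 0, and columns were not matched to replicate names.

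Of 14352 rows 1 held a value that is not a number. Symbols were found for 13159 of 14351 gene IDs, from a later build, so no coordinates are given; 20 list and flanking genes were matched by gene name or current symbol, and 8 list entries were not matched. Genes with a mean above 2 TPM in a group were fitted with edgeR 4.0.16 (R 4.3.3, quasi-likelihood, TMM, library totals over all genes) and Benjamini-Hochberg adjustment over 9365 genes, called at an adjusted p under 0.01. SEs are the log2 fold change over the root of the F statistic. log2 CPM used a prior count of 2. The fits were tested on simulated data. Alternatives used DESeq2 1.42.0, limma 3.58.1, RLE, other filters, thresholds, pseudocounts of 0.5 and 1 and each library left out.

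The 5 genes and all lists were chosen with earlier results of these data known. In each list the 3 called genes with the largest log2 change and the 1 gene not called with the highest CPM are named, with all flanking genes tested, the 3 nearest profiles per gene, and others marked in the text. Intervals for counting error assume independent reads. 1 planned gene list is not reported here, and sequences were not analysed here.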

Additional observations from a re-analysis of the deposited data

Results flagged for a closer look

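In 118 groups of 5 libraries (the 5 genes and the other tested genes named, each in both groups), 3 had 1 library whose gap to the nearest other exceeded 0.71 of the group's range of log2 CPM. Chance alone flags about 1 group in 20, and 0 of the 3 were of the 5 genes described. Myo31DF, among the nearest to Gadd45 in profile, had injured library 3 at 195 CPM above the others at 154 to 164 (gap 0.738 of the range). mys, the beta integrin subunit, had injured library 1 at 210.5 CPM below the others at 236 to 243 (0.791). p53 had uninjured library 4 at 9.05 CPM above the others at 6.22 to 6.91 (0.721).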

How the results depend on the processing

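The fold changes of the 5 genes kept their direction in all 19 alternatives that gave one. They moved by more than the spread between libraries only with limma on the TPM scales. On log2(TPM + 0.5) GEFmeso was at 1.80 and peg at 1.98. On log2(TPM + 1) GEFmeso was at 1.72, peg at 1.90 and Fas3 at 1.08. The pseudocount by construction shrinks the change of low values. The median over all genes also moved on those scales, to -0.058 and -0.055. The part of each in these moves was not tested. The number of genes called higher was 464 and 466 on those scales, and 1165 at an adjusted p under 0.05, with 1073 lower. At least 2-fold, 223 were called higher and 212 lower, and the lists held 1 (Wingless), 1 (adhesion), 1 (septate junction), 3 (actin and integrin), 3 (stress kinases) and 0 (DNA damage) called genes, with 0 flanking genes. With DESeq2 the adhesion list held 10 called genes, the DNA damage list 2 and the flanking genes 2. At an adjusted p under 0.05 these were 14, 4 and 3. Flanking genes numbered 2 with RLE, with no filter, with the column number as a replicate block, and with library totals over the tested genes (an alternative chosen after seeing the data), and 3 with filterByExpr, against 1 in the main fit. Stress kinase genes numbered 5 with that block and on both TPM scales, against 8. With 1 library left out, called genes ran from 531 to 873 higher and from 442 to 683 lower, from 3 to 11 in the adhesion list, from 4 to 7 among stress kinases, and from 1 to 2 in the DNA damage list and among flanking genes. Other causes were not tested. The labels give the groups different replicate names, so libraries share only a column number; by that number the deviations from the group means correlated at -0.12, 0.21, 0.11, -0.14 and 0.30 for numbers 1 to 5. The median log2 fold change of all genes stayed between -0.06 and 0.01. The comparison of genes whose protein holds a Kazal pattern was not run, as no protein table was used. The target list of JNK and AP-1 held 6 called genes with no filter and with filterByExpr, against 4. Depth limits wg.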
